A study of Mus musculus with 384 samples.

Results

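Progenitor cells of the embryonic mammary gland were compared, gene by gene, with basal cells of the adult gland, cell against cell on 1 plate. Members were the wells titled as single embryonal progenitor cells or single basal cells whose title and sort label agreed, with no fewer than 50000 gene reads and 1500 detected genes, and a mitochondrial share of reads no higher than 20%. This kept 223 of the 331 single cells kept from the whole plate of 384 wells, of which 100 were basal and the others embryonic, and left out 18 basal and 14 embryonic wells. Libraries were made with Smart-seq2, which copies whole polyadenylated transcripts, and each cell was one library.

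The embryonic cells came from female mouse embryos at embryonic day 14 that carried Lgr5-EGFP-IRES-CreER, an allele that places a green fluorescent protein and an inducible Cre under the control of Lgr5. The whole skin with its mammary buds was digested, and cells with high CD49f (integrin alpha 6) and high Lgr5 reporter signal were sorted. Skin holds other epithelial cells that could pass this gate, and the sort did not use a marker of the mammary bud alone. The adult cells came from glands of the Rosa-tdTomato source without lymph nodes, sorted as CD24-positive with high CD29 (integrin beta 1), and the labels do not give the age of these animals. In both gates cells with CD45, CD31 or CD140a, marks of blood, endothelial and mesenchymal cells, and dead cells were excluded. Age, genotype, digestion, antibodies and plate rows all changed together with the gate, so their effects cannot be told apart. No label names an animal or a litter, so each gate is 1 sample, cells are not replicates, no difference has a replicate check and no test was made.

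The adult mammary duct has an inner layer of luminal cells and an outer layer of basal cells. Basal cells are myoepithelial: they hold keratins 5 and 14 like other basal epithelia, and they also carry the actin and myosin of smooth muscle, contract on oxytocin and expel milk. The embryonic bud forms as an ingrowth of the epidermis under Wnt, ectodysplasin and Pthlh signals, before either layer exists as a separate lineage. The comparison asks which parts of the adult basal state are already found in progenitors and which transcripts belong to the embryo.

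Levels are reads summed over the kept cells of a gate, scaled to the total of gene reads (CPM), and a log2 ratio is embryonic over basal with 1 CPM added to each. A gene counts as measured with at least 5 CPM in either gate. Shares of cells with a read were counted after each cell was thinned at random to 50000 reads. Intervals are exact 95% intervals and cover counting error only, since reads copied by PCR and carrying no molecular identifiers do not stand for separate molecules.

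Embryonic wells held a median of 711721 gene reads (52687 to 1836609) and basal wells 486690 (74436 to 1466484), and the 4 wells without a cell held 34 to 563. At 50000 reads the median was 3960 genes per embryonic cell against 2113 per basal cell. There were 25.9 gene reads for each spike-in read in the median embryonic cell and 11.5 in the median basal cell. Of the basal cells 90 of 100 correlated best with the basal well of 50 cells, while 8 matched the luminal well and 2 the embryonic well. All embryonic cells but 1, which matched the luminal well, matched their own. A marker counted as found in a cell when it had at least 5 of the 50000 reads. Fibroblast markers (at least 3 of 10, such as Col1a1 and Col3a1) were found in 27 embryonic and 8 basal cells, endothelial markers in 0 and 6, and pericyte markers in 1 and 2. Wells that matched another gate, embryonic wells with fibroblast markers and basal wells with endothelial or pericyte markers, 28 embryonic and 17 basal in all, are called wells in doubt below, and results that rest on them are given without them. Fibroblast markers alone put no basal well in doubt, and 6 of the 8 such basal wells remain when the wells in doubt are left out. They were picked by transcripts of the same libraries, so leaving them out can itself move a ratio. Bud markers (at least 3 of 8) were found in 86.99% of embryonic and 0% of basal cells, and basal markers (at least 3 of 8) in 36.6% and 86%. Shh, a defining gene of hair placodes, had no read in either gate, and at least 3 of the 9 placode markers were found in 0% of embryonic cells, which allows up to 2.96% (upper exact bound). Of these 9 markers 3 reached 5 CPM in embryonic cells: Edar (51.99 CPM), also a bud marker, Bmp2 (25.25 CPM) and Fgf20 (8.904 CPM). In basal cells 2 did, Ctgf (220.8 CPM) and Krt71 (17.61 CPM).

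Among 12787 measured genes, 53.3% differed at least 2-fold between the gates. The level was higher in embryonic cells for 4333 of them (33.9%) and in basal cells for 2482 (19.4%), with a median log2 ratio of 0.39 over all measured genes. The balance of these calls depended on scaling: 63.6% of the 2-fold differences were toward the embryo with total reads, 52.4% with TMM, 50.9% with median-of-ratios and 89.2% with spike-in scaling. The median of all measured genes then stood at 0.04, 0.00 and 1.71, so differences of modest size have to be read against that shift. In plate rows A to F, which held 8 embryonic and 99 basal cells, 48.8% of the differences were toward the embryo. Between the wells of 50 cells, 1 well a gate, 4116 of 10944 genes (37.6%) were 2-fold higher in the embryonic and 3343 (30.5%) in the basal well. Of the genes called from single cells 56.5% of those toward the embryo and 56.9% of those toward basal cells also differed at least 2-fold the same way between these wells.

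More genes were found in a larger share of embryonic cells than the reverse. At this depth embryonic cells also held more genes each (median 3960 against 2113), and how far this sets the counts below was not tested. A read was present in at least 20 percentage points more embryonic cells for 3452 genes (27%) and in at least 20 points more basal cells for 297 (2.32%). Genes near exclusive to one gate were counted as those in at least 50% of its cells and at most 5% of the other's: 58 were embryonic and 21 basal, while 764 genes were in at least 50% of both. The embryonic set was led in share by Igf2, Sox11, Ndnf, Grb10 and H19, and the basal set by Mylk, Socs3, Myh11, Scn7a, Tagln and Bhlhe41.

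**Figure D1:**
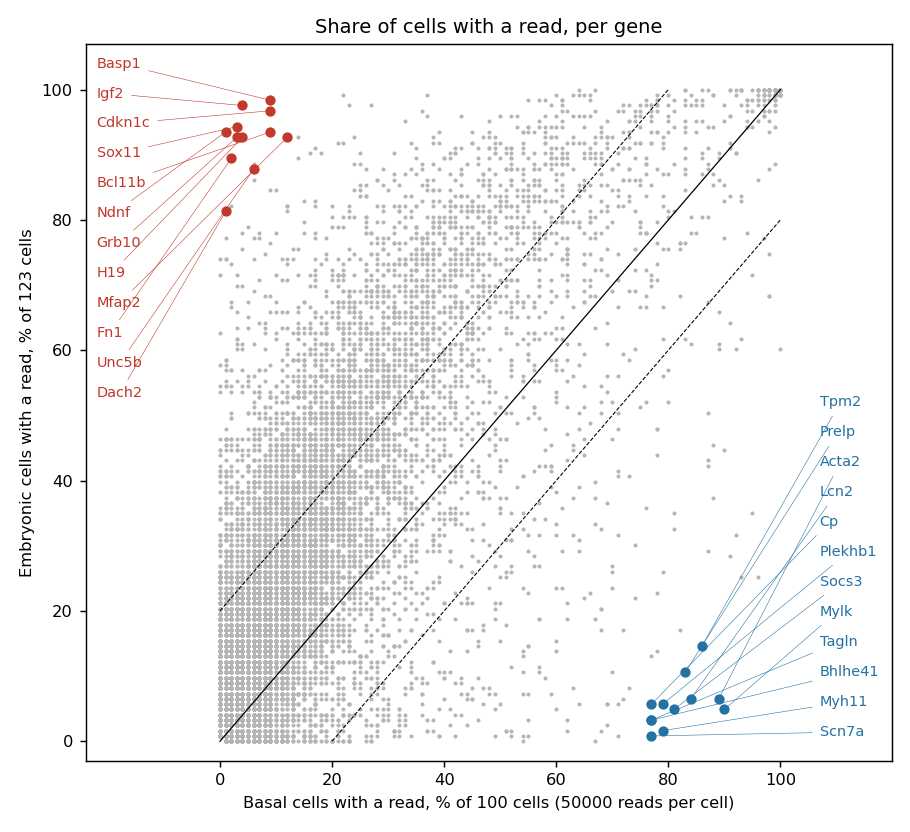
Percent of cells with a read at 50000 reads per cell, for each measured gene, in 100 basal cells (x axis) and in embryonic cells (y axis), with equality as a solid line and differences of 20 percentage points as dashed lines. The 12 labelled embryonic genes (red) lie at 81.3% to 98.4% of embryonic and at most 12% of basal cells, and the 12 labelled basal genes (blue) at 77% to 90% of basal and at most 14.6% of embryonic cells.

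Genes of contraction were far higher in basal cells. Acta2, smooth muscle actin (GRCm38 chr19:34241090-34255590, minus strand), had a median of 0 CPM per embryonic cell and a highest value of 1135, against a median of 6758 and a highest value of 32585 in basal cells. The highest embryonic cell lay below the basal median, although both gates held cells at 0. Myh11, the smooth muscle myosin heavy chain, had a median of 0 and a highest value of 158 in embryonic cells and a median of 540.0 and a highest value of 4080 in basal cells. Mylk, the kinase that switches this myosin on, was found in 4.88% of embryonic cells and 90% of basal cells. Its highest embryonic cell, at 1964 CPM, lay above the basal median of 1041, so the ranges overlapped more than for Myh11.

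All 17 measured members of the contractile list (of 18) were at least 2-fold higher in basal cells, with a median log2 ratio of -5.03, and -6.12 without the wells in doubt. Tpm2, a tropomyosin, was 75.2-fold higher (72.4 to 78.2), Tagln, the actin-binding transgelin, 94.9-fold (84.1 to 107.6), Myl9, the regulatory light chain, 26.4-fold (25.6 to 27.2) and Csrp1, a LIM protein, 24.1-fold (23.3 to 24.8). Tpm1, a second tropomyosin that non-muscle cells also use, differed less, at 251 CPM in embryonic and 1283 CPM in basal cells. Of the few embryonic Acta2 reads 84.1% lay in the wells in doubt, which held 22.96% of all embryonic reads, and Acta2 had a log2 ratio of -8.55 with them and -10.80 without them. Summed over the list, embryonic cells had a median of 832 CPM (16.02 to 6181) and basal cells 16627 (9.29 to 74569). No embryonic cell exceeded the basal median, and 95 of 100 basal cells exceeded the embryonic median.

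Per kilobase of exon, Acta2 stood at 4360 CPM per kb in basal cells, far above Tpm2 at 769.6, Myh11 at 118.7 and Mylk at 109.5 on the same scale. The cytoplasmic actins differed little: Actb was at 4996 CPM in embryonic and 5088 CPM in basal cells, and Actg1 at 599 and 964. Actg2, enteric smooth muscle actin, was at 0.0561 CPM in embryonic and 86.01 CPM in basal cells, with 33.4% of the basal reads from 1 cell. Actin genes are close copies of each other, and how reads shared between them were counted is not given in the sources used here.

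Promoters of Acta2 and Myl9 show the motif class for which smooth muscle genes are known, the CArG box bound by serum response factor. They are given here because each holds a pair of such boxes; capitals mark CArG boxes allowing 1 other base, on either strand. The sequences are from RefSeq (GRCm38.p6), on the strand of the gene, for Acta2 chr19:34255378-34255477 (minus strand) and for Myl9 chr2:156775283-156775394 (plus strand), both upstream of the start.
Acta2: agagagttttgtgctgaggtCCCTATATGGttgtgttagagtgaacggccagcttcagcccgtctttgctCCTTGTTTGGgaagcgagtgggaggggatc
Myl9: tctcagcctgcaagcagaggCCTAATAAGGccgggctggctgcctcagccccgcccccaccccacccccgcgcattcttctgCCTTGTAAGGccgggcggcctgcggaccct

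Of 15 contractile genes with a promoter in RefSeq's set, 3 (20%) held such a box between 250 bases before and 50 after the start, namely Acta2, Myl9 and Pdlim3, against 11.3% of 27025 genes. It was also in 5 of 19 DNA replication promoters (26.3%), a higher share, and was in 0 of 18 mitosis promoters. Without the other base it was 1 of 15 (6.67%), Myl9, against 1.81% of all genes, and 1 of 19 replication promoters (5.26%). A match describes letters in this window only.

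Among regulators of contraction, Oxtr, the oxytocin receptor, had 2 reads in all embryonic cells and none of these cells held it at 50000 reads, while 67% of basal cells did, with a median of 182 and a highest value of 6505 CPM. Itpr1, a calcium release channel, was 3.17-fold higher in basal cells. Of the 16 measured genes of this list 6 were at least 2-fold higher in basal and 2 in embryonic cells, beside 19.4% and 33.9% of all measured genes. Those toward the embryo were Srf (2.20-fold), serum response factor itself, and Pde5a, a cyclic GMP phosphodiesterase (2.98-fold). The kinases and the small GTPase of the pathway were within 2-fold: Rhoa was at 251 CPM in embryonic and 207.5 CPM in basal cells, Rock1 at 204 and 148 CPM, and Rock2 at 138 and 231 CPM. The median of the list was -0.63, and 0.64 with spike-in scaling, beside 0.39 and 1.71 for all genes.

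Keratins of the basal layer were present in both gates. Krt14 (chr11:100203162-100207548) had a median of 720 CPM and a highest value of 3761 per embryonic cell, and a median of 1284 and a highest value of 10588 per basal cell. Krt5, its partner, had medians of 155 and 465 CPM. For both genes the ranges overlapped over most of their length. With spike-in scaling the log2 ratio of Krt14 was 0.15 in place of -1.13, beside a median of 1.71 in place of 0.39 for all genes. Krt17, a keratin of basal and stressed epithelium, was 7.31-fold higher in basal cells (7.17 to 7.46), found in 31.7% of embryonic and 55% of basal cells. Krt15, a keratin of epidermal basal and hair follicle progenitor cells, went the other way at 332 CPM in embryonic and 40.6 CPM in basal cells, 8.18-fold (7.83 to 8.55), and Krt10, a keratin of differentiating epidermis, was 4.796-fold higher in embryonic cells at a low level of 34.5 CPM.

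Of the luminal keratins, Krt8 was at 359 CPM in embryonic and 925 CPM in basal cells, but the 10 basal wells that matched another gate held 82.3% of the basal Krt8 reads and 82.8% of the Krt18 reads. Without those wells the log2 ratio of Krt8 was 0.82 in place of -1.36, and that of Krt18 0.36 in place of -1.81. By share, Krt8 was found in 78.05% of embryonic and 57% of basal cells. Over the 11 measured keratins 3 were at least 2-fold higher in embryonic and 8 in basal cells, beside 33.9% and 19.4% of all measured genes. The median of -1.36 became 0.59 without the wells that matched another gate.

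Counted cell by cell, with 5 of 50000 reads as detection, Krt14 was found in 77.2% of embryonic cells (interval 68.8% to 84.3%) and in 77% of the basal ones (67.5% to 84.8%). The share with Krt5 was higher in the basal gate: 77% there (67.5% to 84.8%), against 61.8% in the embryonic gate (52.6% to 70.4%), and 87.95% against 67.4% without the wells in doubt. The pair Krt14 and Acta2 separated the gates: 94 embryonic cells (76.4%, 67.9% to 83.6%) held Krt14 without Acta2, against 1 of 100 basal cells, while 76 of 100 basal cells held both, against 1 embryonic cell. Krt14 together with Krt8, a basal with a luminal keratin, was found in 66 embryonic cells (53.7%, 44.4% to 62.7%) and in 32 basal cells (32%, 23.02% to 42.1%). Without the wells in doubt those shares were 58.9% and 33.7%, so cells with both keratins were not limited to the wells in doubt.

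**Figure D2:**
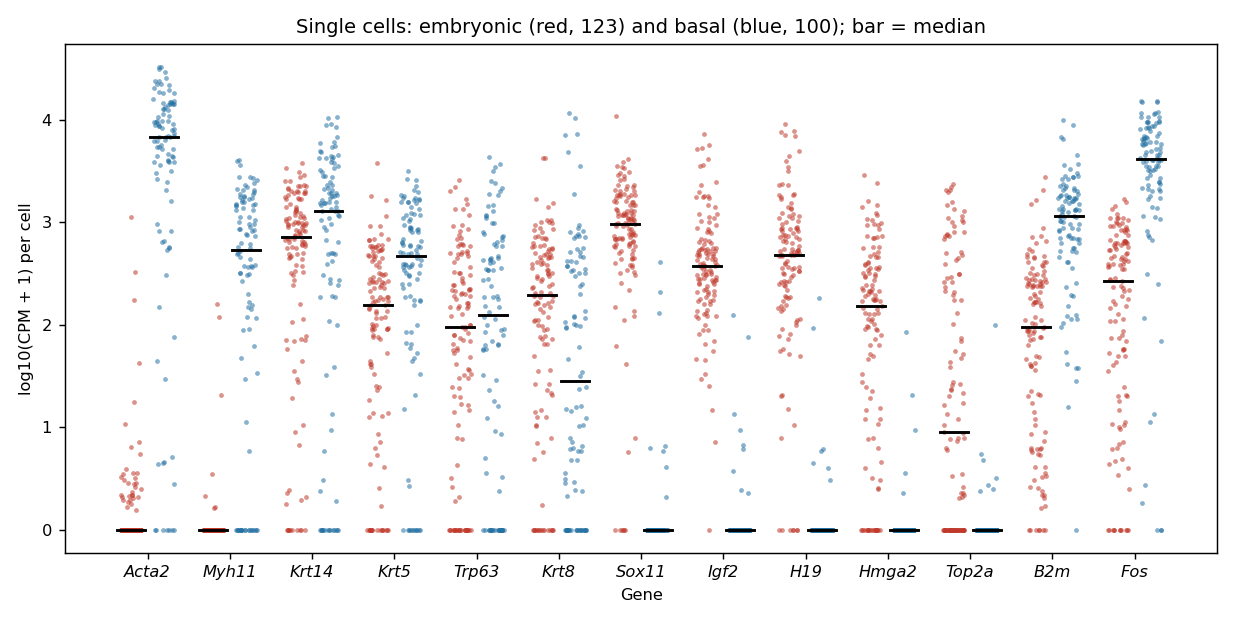
Level of 13 genes in each embryonic (red) and basal cell (blue) as log10 of CPM plus 1, with the median of the plotted values as a bar. Acta2 and Myh11 have medians of 0 in embryonic cells and Sox11, Igf2, H19 and Hmga2 have medians of 0 in basal cells, while Krt14, Krt5 and Trp63 overlap between the gates.

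Trp63, the transcription factor that maintains basal epithelia (chr16:25683763-25892102), had a median of 93.4 and a highest value of 2583 CPM in embryonic cells and a median of 124.2 and a highest value of 4301 in basal cells. It was found in 72.4% and 68% of cells, and with spike-in scaling its log2 ratio of -1.04 became 0.24, beside a median of 1.71 for all genes. Of 12 basal transcription factors 9 were at least 2-fold higher in basal cells and 2 in embryonic cells, beside 19.4% and 33.9% of all measured genes. The median of the list was -1.54. With spike-in scaling 3 of 11 were higher in each gate, with a median of -0.14 beside 1.71 for all genes. Runx1, a factor of basal and progenitor cells, was 6.04-fold higher in basal cells (5.92 to 6.17), and Wwtr1, the Hippo pathway coactivator TAZ, 2.68-fold. Bcl11b and Bcl11a, zinc finger factors, were the members toward the embryo. Bcl11b had a median of 297 CPM in embryonic cells and 0 in basal cells and was found in 93.5% and 9% of cells, and Bcl11a in 64.2% and 8%. Foxp1, at 415 CPM in embryonic and 384 CPM in basal cells, differed by 1.08-fold.

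Factors of the bud were split. Sox11, an embryonic SOX factor (chr12:27334264-27342574), had a median of 968 and a highest value of 10811 CPM in embryonic cells. In basal cells it had a median of 0 and a highest value of 411 (208 without the wells in doubt). With 5 reads as detection, 91.1% of embryonic and 3% of basal cells held it. Lef1, the nuclear partner of beta-catenin, was 205-fold higher in embryonic cells (151 to 286), Tbx3, the T-box factor required for the bud, 7.93-fold, and Gata3, a factor of bud and luminal cells, 4.52-fold. Gata3 was still found in 67% of basal cells, against 90.2% of embryonic cells. Sox9 went the other way and was 2.53-fold higher in basal cells (2.47 to 2.59). Of the 16 measured members 6 were at least 2-fold higher in embryonic and 7 in basal cells, beside 33.9% and 19.4% of all measured genes. The median was -0.49, beside 0.39 for all genes, and with spike-in scaling 0.87, beside 1.71 for all genes.

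Luminal factors had 1 of 9 measured members toward the embryo, Elf5, at 6.94 CPM with 61.9% of its embryonic reads in 1 cell, and 6 toward basal cells, with a median of -1.41. Without the wells that matched another gate, most of which matched the luminal well, it was 2 and 3 of 7 measured members, with a median of -0.42. Cebpb was 5.45-fold higher in basal cells and Pgr, the progesterone receptor, 2.77-fold. Esr1, the oestrogen receptor, was found in 58.5% of embryonic and 14% of basal cells, with levels of 110.1 and 59.5 CPM. Regulators of epithelial and mesenchymal state leaned to the embryo in single cells, with 8 of 13 measured genes at least 2-fold higher in embryonic cells, beside 33.9% of all genes. In basal cells 1, Snai2, was at least 2-fold higher. Between the wells of 50 cells 3 of 11 were 2-fold higher in the embryonic well, beside 37.6% of all genes, and 1 in the basal well. The median there was 0.35, and Snai2 was not higher in the basal well. The single-cell count mixed opposite roles: Ovol1, which represses the mesenchymal state, was 11.5-fold higher in embryonic cells, and Prrx1, a mesenchymal factor, 4.08-fold. Prrx1 is also one of the fibroblast markers, and its log2 ratio of 1.95 was 0.70 without the wells in doubt, while that of Ovol1 went from 3.26 to 4.36. Vim was at 559 CPM in embryonic and 382 CPM in basal cells.

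Of 20 measured basement membrane and hemidesmosome genes 10 were at least 2-fold higher in basal cells and none in embryonic cells, beside 19.4% and 33.9% of all measured genes. The median of -1.05 was 0.22 with spike-in scaling, beside 1.71 for all genes. Dst, dystonin, which ties keratins to hemidesmosomes, was the largest: a median of 0 and a highest value of 1867 CPM in embryonic cells, against 573 and 6305 in basal cells, 17.5-fold in sums. Col4a6, a type IV collagen chain, and Lamb3, a chain of the laminin of hemidesmosomes, came next, at log2 ratios of -3.17 and -3.08. Other type IV collagens differed less, with Col4a2 at 207 CPM in embryonic and 633 CPM in basal cells, Col4a1 at 160 and 451 CPM and Col4a5 at 67.3 and 270.1 CPM. Itga6, the sorted CD49f, was at 1004 CPM in embryonic and 971 CPM in basal cells, and its partner Itgb4 was 2.01-fold higher in embryonic cells without the added CPM (log2 ratio 0.98 with it). Among integrins Itgav was 3.70-fold and Itgb8 9.74-fold higher in basal cells. Itga4 was at least 253-fold higher in embryonic cells (log2 ratio 3.92), as basal cells held none of its reads. Itgb1, the CD29 of the basal sort, was within 2-fold at 254 and 372 CPM.

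Counts of the interstitial matrix changed without the wells in doubt, which some of its own members had helped to pick. Col1a1, Col1a2, Col3a1, Col6a3, Lum, Dcn and Postn were also fibroblast markers, and basal wells were not picked by them. Lower embryonic levels of these genes without the wells in doubt are thus partly built into the choice. Of 20 interstitial matrix genes 14 were at least 2-fold higher in embryonic and 5 in basal cells, with a median of 2.42, but -0.13 without the wells in doubt. Leaving out also the basal wells with fibroblast markers, a comparison chosen after seeing the data, gave 7 of 18 toward the embryo and 8 toward basal cells, with a median of 0.23. Col1a2 and Col3a1, fibrillar collagens, had log2 ratios of 6.86 and 5.48 that were 2.53 and 3.42 without the wells in doubt, and 2.94 and 5.62 without fibroblast markers in either gate. Fn1, fibronectin, was as high without them: its log2 ratio was 8.20 with and 9.17 without them, it had a median of 498 and a highest value of 2409 CPM in embryonic cells, and it was found in 89.4% of embryonic and 2% of basal cells. Mfap2, a microfibril protein, was also found in 92.7% of embryonic and 12% of basal cells. The members toward basal cells were Postn (26.4-fold), the elastin gene Eln (11.1-fold), Bgn (5.29-fold), Sparc (4.52-fold) and Dcn (2.87-fold), of which Dcn was 0.38 on the log2 scale between the wells of 50 cells. Postn, periostin, was at 56.7 CPM in embryonic and 1495 CPM in basal cells.

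Cell junction genes went both ways with all wells, and tight junction genes leaned to the embryo without the wells that matched another gate. Among 18 genes of adherens junctions and desmosomes 5 were at least 2-fold higher in embryonic and 2 in basal cells, and among 15 tight junction genes it was 5 and 4, beside 33.9% and 19.4% of all measured genes. Without the wells that matched another gate it was 8 and 2 of 17, and 9 and 0 of 15, beside 4609 and 2450 of all 12736 genes measured then. The genes within 2-fold included Jup (300 and 291 CPM in embryonic and basal cells), Dsp (328 and 299 CPM) and Perp (520.0 and 666 CPM). Epcam was at 694 and 553 CPM, with a log2 ratio of 0.33 that was 1.37 without the wells in doubt. Claudins differed: Cldn6, a claudin of embryonic epithelia, had a median of 151 CPM in embryonic and 0 in basal cells and was 70.8-fold higher (62.4 to 80.7), and Cldn7 was 2.67-fold higher in embryonic cells. Cldn4 was 2.15-fold higher in basal cells with all wells, but its log2 ratio of -1.10 became 7.04 without the wells that matched another gate.

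Wnt ligands were an embryonic group. Of 11 measured ligands 9 were at least 2-fold higher in embryonic and 2 in basal cells, with a median of 3.24, beside 0.39 for all genes. Wnt6 (chr1:74771892-74785322) had a median of 165 and a highest value of 2643 CPM in embryonic cells and a median of 0 and a highest value of 237 in basal cells. Wnt4 was 10.0-fold higher in embryonic cells (9.34 to 10.8), Wnt7a 895-fold (411 to 2440, log2 ratio 6.51) and Wnt3 737.5-fold (358 to 1835, log2 ratio 6.42). Each of these was found in at most 5% of basal cells. Wnt5a was shared more, at 213 CPM in embryonic and 86.04 CPM in basal cells, found in 74.8% and 45%. Wnt9a was the larger of the 2 toward basal cells, 3.04-fold at a level of 9.16 CPM and found in 5% of basal cells. Summed over the list, all but 2 embryonic cells lay above the basal median and 3 of 100 basal cells above the embryonic median.

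Wnt receptors and secreted inhibitors were found on both sides. Fzd7, a frizzled receptor, was at 46.3 CPM in embryonic and 366 CPM in basal cells, 7.90-fold higher in the latter (7.64 to 8.17), while Lrp6 was at 289 and 224.5 CPM and Lgr4 at 148 and 222 CPM. Lgr5, on whose reporter the embryonic cells were sorted, had a median of 424 CPM in embryonic and 0 in basal cells and was found in 86.99% and 31%. Its log2 ratio was 1.42 in single cells but -0.28 between the wells of 50 cells. Among inhibitors and feedback genes, 10 of 17 were at least 2-fold higher in embryonic and 4 in basal cells, the latter close to the share of all genes (33.9% and 19.4%). Kremen2, a receptor of Dickkopf proteins, was 109.4-fold higher in embryonic cells (94.7 to 127.2) and Znrf3, a ligase that removes frizzled receptors, 7.32-fold. Dkk3, Wif1 and Sfrp1, all secreted, were 24.6-fold, 18.9-fold and 7.49-fold higher in basal cells. The median of this list, 1.46, was 0.62 without the wells in doubt.

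**Figure D3:**
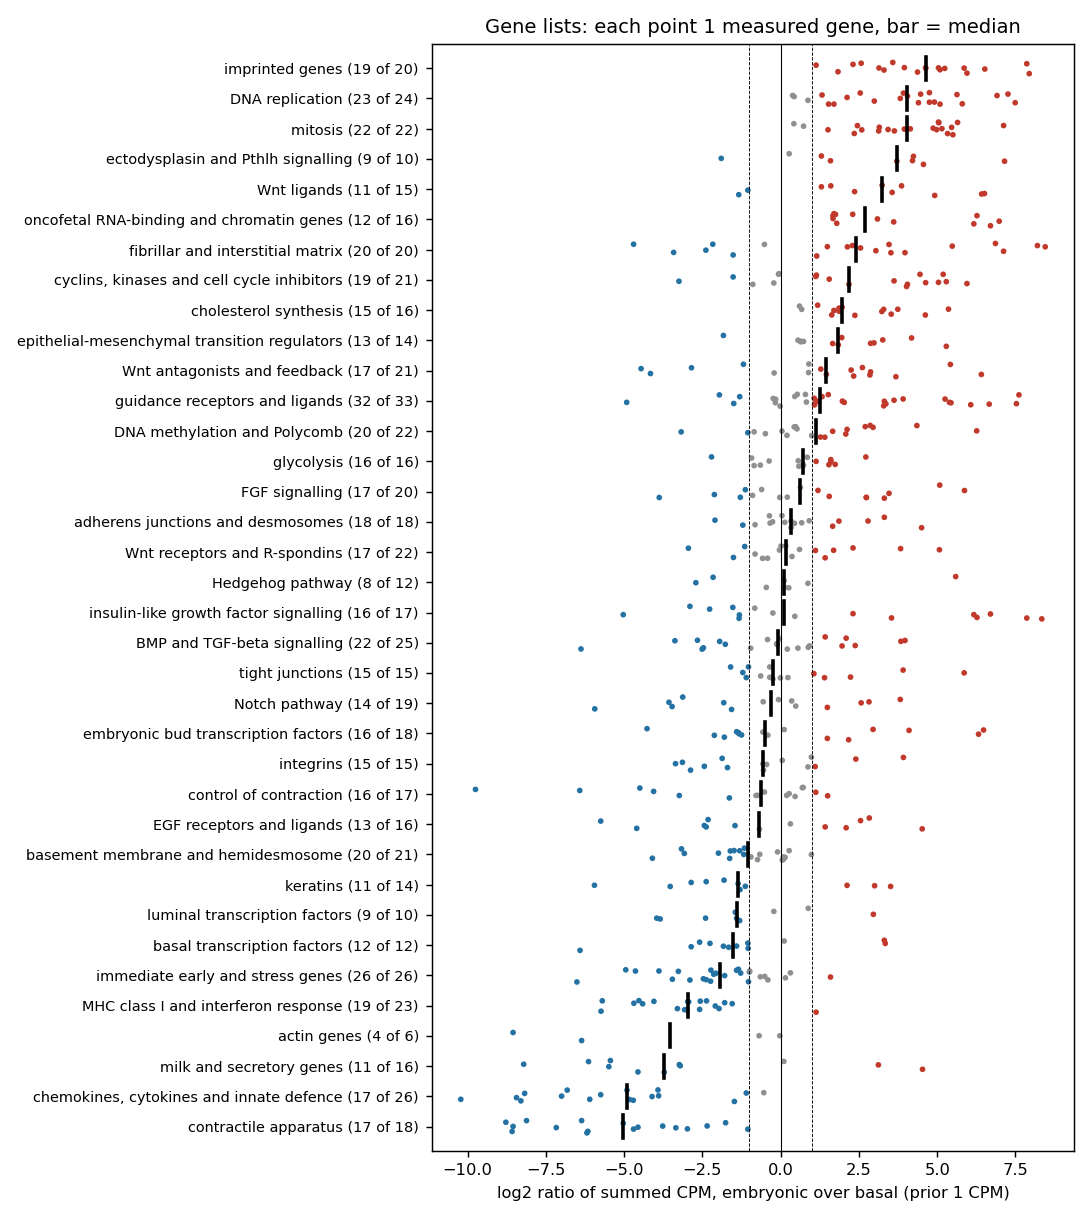
Log2 ratio of summed CPM, embryonic over basal, for each measured gene of 36 lists (points, with measured of all members in brackets), with the list median as a bar and 2-fold as dashed lines. Contractile apparatus (median -5.03) and chemokines (-4.91) lie lowest, and imprinted genes (4.63), DNA replication (4.05) and mitosis (4.04) highest.

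Some Notch receptors and targets lay toward the embryo, and those at least 2-fold toward basal cells rested on few cells. Notch1 was 7.28-fold higher in embryonic cells (6.91 to 7.67), Notch3 18.99-fold and the target Hes1 6.01-fold. The receptor Notch4 and the target Heyl stood at -3.47 and -1.57 on the log2 scale, but Notch4 had reads in 2% of basal cells and stood at 0.02 without the wells in doubt, and all basal Heyl reads came from 1 cell, without which it stood at 1.22. Ligands lay toward basal cells: Dll1 was at 0.605 CPM in embryonic and 97.6 CPM in basal cells, found in 0.813% and 39%, and Jag1 was 3.57-fold higher. Jag2 differed by 1.05-fold, at 51.6 CPM in embryonic and 54.3 CPM in basal cells. The list median was -0.32, but 0.08 without the wells in doubt. With spike-in scaling it was 1.19, beside 1.71 for all genes.

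The EGF family divided by receptor. Egfr was 5.31-fold higher in basal cells (5.10 to 5.53), found in 34.1% of embryonic and 56% of basal cells. Erbb2 was 6.28-fold and Erbb4 88.7-fold (log2 ratio 4.52) higher in embryonic cells. Errfi1, an inhibitor of these receptors, had a median of 0 CPM in embryonic and 363 in basal cells, 24.9-fold in sums. Areg, amphiregulin, had a log2 ratio of -2.44 that was 3.14 without the wells that matched another gate, and Erbb3 moved from 0.31 to 5.94. The median of the list, -0.68, was then 2.06, and its direction rests on those wells.

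Insulin-like growth factor genes went both ways, from -5.03 (Igfbp7) to 8.34 (Irs4) on the log2 scale. Igf2 (chr7:142650766-142666816, minus strand) had a median of 377 and a highest value of 7269 CPM (1969 without the wells in doubt) in embryonic cells. In basal cells it had a median of 0 and a highest value of 123.8 (74.98 without the wells in doubt). With 5 reads as detection it was found in 90.2% of embryonic cells (83.6% to 94.9%) and 0 of 100 basal cells, which allows a share of up to 3.62% (upper exact bound). By 1 read at this depth 4% of basal cells held it, and 9% without thinning. Irs4, an adaptor of the insulin receptor family, was found in 62.6% of embryonic cells and in no basal cell at 50000 reads. Igf2bp2, which binds Igf2 RNA, was 658-fold higher in embryonic cells (358 to 1372, log2 ratio 6.70). The binding proteins went different ways: Igfbp4 was 11.9-fold higher in embryonic cells, whereas Igfbp5 was 7.45-fold and Igfbp7 34.8-fold higher in basal cells. Igfbp5 reached 4574 CPM in basal cells and was found in 89.4% of embryonic and 89% of basal cells.

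Imprinted genes, of which only one parental copy is used, were higher in the embryo without exception among those measured. All 19 measured genes of 20 were at least 2-fold higher in embryonic cells, from 1.131 (Phlda2) to 7.94 (H19) on the log2 scale, with a median of 4.63 and 3.70 without the wells in doubt, although in plate rows A to F Phlda2 stood at -2.07. H19, a long non-coding RNA that lies beside Igf2 (chr7:142575529-142578143), had a median of 482.5 and a highest value of 9062 CPM in embryonic cells. In basal cells it had a median of 0 and a highest value of 181 (91.73 without the wells in doubt). Grb10, which dampens insulin-type receptors, was 114.6-fold higher (100.1 to 131.8), Cdkn1c, a cyclin-dependent kinase inhibitor, 25.9-fold, Nnat 12.2-fold and Peg3 8.91-fold. Per cell, the summed list had a median of 3528 CPM (2.52 to 33906) in embryonic and 76.1 CPM (0 to 3130) in basal cells. All embryonic cells but 1 exceeded the basal median, and no basal cell exceeded the embryonic median. Several of these genes overlap or neighbour others of the same locus, and whether the counting used strand is not given in the sources used here.

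Genes for RNA-binding and chromatin proteins that are known from fetal tissue were also all higher: 12 of 12 measured, with a median of 2.69. Hmga2, a chromatin protein of growing embryonic cells, had a median of 150 CPM in embryonic and 0 in basal cells, 221-fold in sums (175 to 283), and was found in 73.2% and 2% of cells. Igf2bp3 was found in 57.7% and 1%. Hmgb2 and Hmgb3 differed less, by 3.27-fold and 3.45-fold, and were found in 30% and 13% of basal cells.

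**Figure D4:**
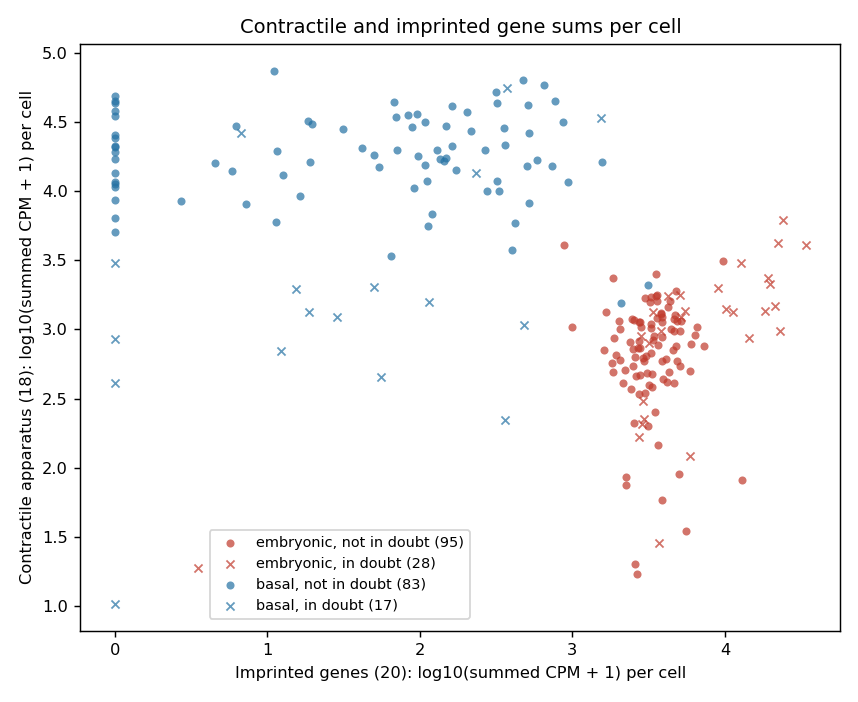
Summed CPM per cell of the 20 imprinted genes (x axis) and the 18 contractile genes (y axis), as log10 of CPM plus 1, for embryonic (red) and basal cells (blue), with wells in doubt as crosses. The embryonic cells have medians of 3528 and 832 CPM, and the basal cells 76.1 and 16627 CPM. Basal dots at imprinted sums of 3130 and 2084 CPM lie among the embryonic cells, with contractile sums of 2109 and 1556 CPM.

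Cell cycle genes were higher in embryonic cells and came from a part of them. Top2a, a topoisomerase made by dividing cells (chr11:98992943-99024189), had a median of 7.88 and a highest value of 2366 CPM in embryonic cells. In basal cells it had a median of 0 and a highest value of 99.4 (4.422 without the wells in doubt). With 5 reads as detection it was found in 43 embryonic cells (34.96%, 26.6% to 44.1%) but in just 1 of the 100 basal ones (0.0253% to 5.45%). Top2a and Mki67 together were found in 31 embryonic cells (25.2%) and 0 of 100 basal cells, the latter allowing up to 3.62% (upper exact bound). Without the 10 basal wells that matched another gate, 0 of 90 basal cells held Top2a at this limit. Of 22 mitosis genes 20 were at least 2-fold higher in embryonic cells and none in basal cells (median 4.04, and 5.81 without the wells in doubt), and of 23 measured replication genes it was 20 and none (median 4.05). Mcm6, a subunit of the replicative helicase, was at 184.5 CPM in embryonic and 10.2 CPM in basal cells. Mitosis sums reached 12419 CPM in embryonic and 9497 CPM in basal cells. The 2 highest basal cells, at 9497 and 2816 CPM, were wells in doubt, and the highest other basal cell was at 669.7 CPM, against an embryonic median of 355.5 CPM.

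Some promoters of these genes hold the motifs known for the 2 phases. They are shown for 3 mitosis and 2 replication genes, given here because each holds a match. Capitals mark the cell cycle homology element TTTGAA in the first 3 and the E2F motifs TTTCCCGC or TTTGGCGC in the other 2, on either strand. Sequences are from RefSeq (GRCm38.p6), on the strand of the gene and upstream of the start: Top2a chr11:99024190-99024388 (minus), Cdk1 chr10:69352913-69353003 (minus), Ube2c chr2:164769880-164769925 (plus), Mcm6 chr1:128359725-128359835 (minus) and Cdc6 chr11:98907993-98908040 (plus).
Top2a: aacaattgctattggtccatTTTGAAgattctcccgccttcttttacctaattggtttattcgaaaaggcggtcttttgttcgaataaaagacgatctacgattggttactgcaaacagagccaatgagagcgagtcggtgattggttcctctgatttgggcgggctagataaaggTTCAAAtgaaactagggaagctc
Cdk1: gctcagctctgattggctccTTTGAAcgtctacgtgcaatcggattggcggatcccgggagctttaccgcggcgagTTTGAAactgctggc
Ube2c: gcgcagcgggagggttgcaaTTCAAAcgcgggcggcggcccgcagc
Mcm6: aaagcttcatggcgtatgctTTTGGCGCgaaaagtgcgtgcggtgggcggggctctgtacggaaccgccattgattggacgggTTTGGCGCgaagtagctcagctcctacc
Cdc6: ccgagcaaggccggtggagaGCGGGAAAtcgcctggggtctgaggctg

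The element TTTGAA was in 12 of 18 mitosis promoters (66.7%), in 3 of 19 replication promoters (15.8%) and in 20.2% of all 27025. An E2F motif was in 7 of 19 replication promoters (36.8%), in 0 of 18 mitosis promoters and in 1.80% of all. The CCAAT box, read as ATTGG, was in 15 of 18 mitosis (83.3%) and 12 of 19 replication promoters (63.2%) against 41.1% of all. Over all measured genes with a promoter TTTGAA was in 15.5% of those at least 2-fold higher in embryonic cells and in 14.7% of those higher in basal cells.

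The list of cyclins also held their kinases, cell cycle inhibitors and genes of the E2F and Rb families. Its sum lay above the basal median in 100% of embryonic cells and above the embryonic median in 0 of 100 basal cells. Ccnd2, a D-type cyclin, had a median of 2503 and a highest value of 18308 CPM in embryonic cells, a median of 0 and a highest value of 1821 in basal cells, and was found in 99.2% and 22% of cells. Ccnd1 was 12.7-fold higher in embryonic cells (12.1 to 13.5) and Cdk4, the kinase both cyclins bind, 4.54-fold. The members at least 2-fold toward basal cells were inhibitors: Cdkn1b (p27) at 4.52 CPM in embryonic and 51.7 CPM in basal cells, 11.4-fold, and Cdkn1a (p21) at 57.8 and 168 CPM. Inhibitors did not all lie that way: Cdkn1c had a log2 ratio of 4.63, and Cdkn2c (-0.05) and Cdkn2d (-0.22) were within 2-fold. For Cdkn1a the log2 ratio of -1.52 was -0.19 without the wells in doubt.

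DNA methylation and Polycomb genes had 10 of 20 measured members at least 2-fold higher in embryonic and 2 in basal cells, beside 33.9% and 19.4% of all measured genes. Dnmt3a, a methyltransferase that sets new marks, had a median of 434 CPM in embryonic and 0 in basal cells and was found in 95.9% and 37%. Uhrf1, which guides maintenance methylation after replication, was 129.9-fold higher (103.7 to 165), Dnmt1 8.003-fold and Ezh2, the Polycomb methyltransferase, 4.41-fold. Cbx7, a Polycomb reader, was at 8.56 CPM in embryonic and 16.2 CPM in basal cells.

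Other bud signals also lay toward the embryo. Pthlh, the bud signal to the mesenchyme, had a median of 195 and a highest value of 1920 CPM in embryonic cells and a median of 0 and a highest value of 1303 in basal cells. It was found in 77.2% of embryonic and 7% of basal cells. Edaradd, the adaptor of the ectodysplasin receptor, was 20.99-fold higher in embryonic cells (18.9 to 23.3), and Tnfrsf19, a relative of that receptor, was found in 57.7% of embryonic cells and in no basal cell at 50000 reads.

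Guidance genes, first known from axons, were largely embryonic. Of 32 measured 20 were at least 2-fold higher there and 4 in basal cells (median 1.26), beside 33.9% and 19.4% of all measured genes. Ndnf, a secreted neurotrophic factor, had a median of 888 and a highest value of 4723 CPM in embryonic cells against 0 and 310 in basal cells. Unc5b, a netrin receptor, was 120.7-fold higher (107.2 to 136.5), Sema3d, a semaphorin, 81.2-fold, Epha7, an ephrin receptor, 15.4-fold and Efnb2, an ephrin, 10.2-fold. Ntn4, a netrin of basement membranes, was 51.9-fold higher in basal cells (43.3 to 62.8) and found in 31% of them.

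Among receptors of other growth signals, Fgfr2 was at 801 CPM in embryonic and 350 CPM in basal cells and Fgfr1 was 1.53-fold higher in basal cells. Fgf1 was 15.6-fold and Dusp6, an ERK phosphatase, 4.38-fold higher in basal cells. Fst, follistatin, which traps activins, had a median of 0 CPM in embryonic and 346 in basal cells, 97.3-fold in sums (89.2 to 106.3). Bmpr2 was at 222 and 242 CPM, and Id3, a target of BMP signals, was 5.22-fold higher in embryonic cells. Gas1, a Hedgehog coreceptor, was 6.597-fold higher in basal cells and Smo within 2-fold at 99.5 and 82.7 CPM. Gli2 was 683-fold higher in embryonic cells (266 to 2506), with a log2 ratio of 5.59 with the added CPM.

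Antigen presentation was low in the embryo. Of 19 measured MHC class I and interferon genes 18 were at least 2-fold higher in basal cells and 1, Stat2, in embryonic cells (-1.93 on the log2 scale between the wells of 50 cells), with a median of -2.97 and -2.69 without the wells in doubt. B2m, the light chain of class I molecules, had a median of 94.9 and a highest value of 2755 CPM in embryonic cells. In basal cells it had a median of 1157 and a highest value of 9962 (3619 without the wells in doubt). The class I heavy chain genes H2-D1 and H2-K1 were 26.3-fold and 16.9-fold higher in basal cells and found in 25.2% and 29.3% of embryonic cells against 93% and 87% of basal cells. These heavy chain genes are near copies, so the division of reads between them is uncertain. Summed over the list, all 100 basal cells lay above the embryonic median of 571 CPM and 1 embryonic cell above the basal median of 4833 CPM. Immune cell markers were close to 0 in both gates, at 9.05 CPM summed over 10 markers in embryonic and 2.75 CPM in basal cells, and Ptprc (CD45) had no read in embryonic cells.

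Secreted defence proteins and chemokines were a basal group, with 16 of 17 measured genes at least 2-fold higher in basal cells and none in embryonic cells (median -4.91, and -5.75 with genes without an embryonic read set to the limit of 3 reads). Lcn2, lipocalin 2, which binds iron carriers of bacteria, had a median of 0 and a highest value of 832 CPM in embryonic cells and a median of 2064 and a highest value of 11021 in basal cells. Chil1, a chitinase-like protein, had a basal median of 946 CPM and a highest value of 50728, so few cells gave much of its sum of 6052 CPM. Cxcl12, a chemokine of stromal and myoepithelial cells, was found in 5.69% of embryonic and 69% of basal cells, and C4b, a complement component, in 0.813% and 52%. Cxcl14 was shared, in 86.99% and 88%, and its log2 ratio of -1.10 was 0.18 with spike-in scaling, beside a median of 1.71 for all genes.

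Milk and secretory genes were higher in basal cells for 8 of 11 measured members, with a median of -3.72 (-4.56 on the limit of 3 reads), but some sums came from few cells. Spp1, osteopontin, was at 523 CPM in basal cells with 86.6% of the reads in 1 cell, and Csn3, a casein, was 72.1-fold higher in basal cells with 65.4% of its reads in 1 cell. Mfge8, a milk fat globule protein, was broader: it was found in 36.6% of embryonic and 69% of basal cells and was 9.403-fold higher in the latter (9.11 to 9.71). Kit, a receptor of luminal progenitors, was 74.75-fold higher in embryonic cells (49.7 to 118.1, log2 ratio 4.53).

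Immediate early genes, which respond to growth signals and also to tissue digestion, were higher in basal cells. Fos had a median of 266.5 and a highest value of 1672 CPM in embryonic cells and a median of 4134 and a highest value of 15200 in basal cells, and it was found in 78.05% and 94%. Egr1 had medians of 688 and 3892 CPM, and Zfp36, which destabilises messenger RNA, was 11.1-fold higher in basal cells. Of 26 genes 18 were at least 2-fold higher in basal cells and 1, Hsph1, in embryonic cells, with a median of -1.93 and -1.12 without the wells in doubt. The heat shock genes Hspa8 (729 and 657 CPM) and Hsp90aa1 (895 and 724 CPM) were within 2-fold. Adult tissue was digested longer than embryonic tissue and also met trypsin, which cannot be told apart from the gate.

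Genes of cholesterol synthesis were higher in the embryo. Of 15 measured cholesterol synthesis genes 13 were at least 2-fold higher in embryonic cells and none in basal cells, with a median of 1.96. Cyp51, a demethylase of the pathway, was 10.5-fold higher (9.504 to 11.6) and found in 38.2% of embryonic and 5% of basal cells, and Hmgcs1, which makes an early precursor, was 3.68-fold higher. In glycolysis 6 of 16 genes were at least 2-fold higher in embryonic cells and 1, Pfkp, in basal cells, the former close to the 33.9% of all measured genes. Pkm and Tpi1 were 3.03-fold each, while Gapdh (680 and 409 CPM) and Ldha (698 and 472 CPM) were within 2-fold.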

How the data were processed

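One cell went into each well of a 384-well plate, and libraries came from Smart-seq2 and Nextera XT with ERCC spike-ins, per the labels. The deposited table holds raw read counts per gene and well. Per the submitters' processing notes, the tools were HTSeq 0.6.0, STAR 2.5.2b and cutadapt 1.13, and the build was GRCm38. The sources used here give neither the annotation nor the strand mode. Gene IDs were matched to names in the reference tables for 43749 IDs with their version and 5577 without it, and 259 did not match. Counts of the kept wells were summed per gate without ERCC and scaled to CPM. No doublet caller was run.

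A gene was measured with at least 5 CPM in either gate and called at 2-fold on log2 ratios with a prior of 1 CPM. Shares were counted after thinning to 50000 reads, with Clopper-Pearson intervals, and ratios of summed reads have exact conditional intervals. Each well was matched to the wells of 50 cells by Spearman correlation. A fold against 0 reads was computed against 3 reads over the gate. Promoters, from 250 bases before to 50 after the start, were read from RefSeq (GRCm38.p6) for 27025 genes.

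The members and gene lists were chosen with earlier results of these data known. Named genes were the 12 toward each gate with the largest difference in share of cells, among those with at least 50 CPM and a 2-fold difference in the same direction in single cells and in the wells of 50 cells, up to 6 members of each list with the highest CPM and up to 3 that went against its median, and the sorted proteins, main keratins, Trp63, Acta2, Mki67, Top2a and Xist. Col1a1, Pdlim3, Phlda2, Cdc6, Notch4, Heyl, Lamb3 and Col4a6 were named after their values were seen. Alternatives were other scalings (TMM, median-of-ratios, spike-ins, leaving out the 100 top genes), other minimum levels and priors, other cell filters, thinning, the mean of per-cell CPM, plate rows A to F, the wells of 50 cells, and leaving out doubtful wells, also with basal wells with fibroblast markers (chosen after seeing the data), or the top well of a gene. Calculations used Python 3.11.15 with numpy 2.4.6, pandas 2.3.3, scipy 1.17.1 and matplotlib 3.10.9, and R 4.3.3 with edgeR 4.0.16 for TMM factors, and were tested on simulated data.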

Additional observations from a re-analysis of the deposited data

Results flagged for a closer look

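One well outside the comparison held a signal above the wells without a cell. Its title and its sort label name different gates, so it was given no group. It held 774060 gene reads on 4031 genes, against at most 563 reads in the wells without a cell, and correlated best with the luminal well of 50 cells.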

How the results depend on the processing

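The 4333 genes higher in embryonic cells were 9181 with spike-in scaling, 2811 with a minimum of 20 CPM and 2277 at 4-fold, and the 2482 higher in basal cells were 1110, 1642 and 1355, and 4123 in plate rows A to F. By share of cells, the 3452 embryonic genes were 1327 with 5 reads as detection and 5251 without thinning. Fewer genes are tested at 20 CPM and the 4-fold limit is stricter by construction, and the cause of the other moves was not tested. Of 23 lists with a median of at least 2-fold, 3 changed sign. Keratins went to 0.59 without the wells that matched another gate and 0.55 without the wells in doubt. They were at 0.48 when basal wells with fibroblast markers were left out too (a setting chosen after seeing the data). Basement membrane went to 0.22 with spike-in scaling, beside 1.71 for all genes. Interstitial matrix went to -0.13 without the wells in doubt, which some of its own members had helped to pick. Of 13 lists with a smaller median 12 changed sign under some setting. With spike-in scaling these included control of contraction (0.64), bud factors (0.87), Notch (1.19) and integrins (0.73), beside 1.71 for all genes. Others were EGF (2.06) and tight junctions (1.71) without the wells that matched another gate, and FGF (-1.86) between the wells of 50 cells. Among 184 named genes, TMM, median-of-ratios, thinning and the mean of per-cell CPM reversed 0. Spike-in scaling, with a median of 1.71 for all genes, reversed Krt14 (0.15), Trp63 (0.24), Cldn4 (0.18) and Cxcl14 (0.18). Without the wells that matched another gate and without the wells in doubt, the log2 ratios were 0.82 and 0.84 for Krt8, 0.36 and 0.27 for Krt18, 7.04 and 7.29 for Cldn4, 3.14 and 3.46 for Areg, and 1.22 and 1.44 for Heyl, and without the wells in doubt 0.02 for Notch4. With basal fibroblast-marker wells left out too, they were 0.76, 0.20, 7.28, 3.44, 1.44 and 0.02 for Krt8, Krt18, Cldn4, Areg, Heyl and Notch4. Notch4 was 0.02 with the stricter cell filter, and Heyl 1.22 without its top well. The wells of 50 cells reversed Lgr5 (-0.28), Snai2 (0.25), Dcn (0.38), Cxcl14 (0.06) and Stat2 (-1.93). Heyl (0.00) and Xist (-0.00) showed no difference between those wells. Plate rows A to F reversed Stat2 (-1.12) and Phlda2 (-2.07). No paired analysis was possible because each gate is 1 sample and no label pairs the wells. Rows A to F held 8 embryonic cells, and basal cells had fewer reads and genes than embryonic cells.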
